A study of Mus musculus with 36 samples.

Results

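Streptozotocin (STZ) diabetes was compared with vehicle treatment in kidneys of control mice, in which the circadian clock of the renal tubule had not been deleted. The comparison used the libraries titled STZ-treated or PBS-treated control, 9 of each, which made 18 of the 36 whole-kidney RNA-seq libraries of the series. Per the design text each library came from a separate animal. The control mice carried floxed alleles of Bmal1 (Bmal1 lox/lox, gene symbol Arntl) without the Pax8-rtTA/LC1 transgenes of their cKOt littermates, so the gene was not recombined in them. They drank doxycycline at 2 mg/ml for 2 weeks from an age of 8 weeks, as the cKOt mice did. From 1 week later they received intraperitoneal STZ at 50 mg/kg daily for 5 days, or phosphate-buffered saline (PBS). Tissue was taken at zeitgeber time 9, which counts hours from lights on, when 8 weeks had passed since the final STZ or PBS dose. The cKOt groups (PBS-cKOt and STZ-cKOt, 9 mice each) entered the same model fit and are used here only to set the response of control mice beside that of mice with a tubular Bmal1 deletion. Blood glucose and body weight were not analysed here.

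STZ is a glucose analogue with a nitrosourea group that alkylates DNA. It enters cells through the glucose transporter GLUT2, destroys pancreatic beta cells and so leaves mice short of insulin and hyperglycaemic. The proximal tubule, which reabsorbs filtered glucose, also carries GLUT2, and the diabetic kidney is known for tubular growth, injury and fibrosis. All treated mice received STZ and were sampled at a single time, so a direct action of STZ on the kidney and an effect of diabetes cannot be told apart.

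Depth ran from 16.9 to 22.3 M reads (M stands for 1000000) assigned to genes per library, with a mean ± SD of 20.1 ± 1.23 M over the PBS-control and 20.6 ± 1.82 M over the STZ-control libraries (n = 9 each). Levels are given as CPM, read counts per 1000000 assigned reads, scaled between libraries by TMM, and differences as log2 fold changes of STZ-control over PBS-control. The defining markers of kidney were abundant, with the proximal phosphate transporter gene Slc34a1 at 5005 ± 335 CPM and Umod of the thick ascending limb at 2525 ± 430.5 CPM in PBS-control. STZ-control 7 and 8 stood apart from the rest. Mitochondrially encoded reads were 25.6% and 24.7% of their assigned reads, against 14.6% to 21.5% in the other 16, and 42.8% and 41.2% of their reads mapped to more than 1 place, against 32.9% to 37.8%. The library labelled STZ-control 2 went against its label at several clock genes. Its Arntl level was 13.4 CPM, against 1.18 to 2.64 in the remaining 8 STZ-control libraries and 12.9 to 17.4 in the 18 cKOt libraries. Its Ciart, a clock repressor gene, was at 1.95 CPM against 18.2 to 32.5 in the other 8. Other genes that separate the genotypes were not on the cKOt side, such as Aqp8 at 0.589 CPM and Fhad1 at 0.317 CPM, against 9.35 to 42.9 and 3.6 to 9.05 in cKOt. Npas2, at 4.49 CPM, lay above the other STZ-control libraries (1.01 to 3.40) and below the cKOt libraries (39.7 to 60.1).

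In all, 1919 of 15637 tested genes (12.3%) differed between STZ-control and PBS-control at an edgeR adjusted p under 0.05, 992 of them higher (6.34% of tested genes) and 927 lower (5.93%). Most differences were small. The median size of a called difference was 0.37 on the log2 scale, and 146 higher and 39 lower genes differed by at least 2-fold. The plot of all genes by level shows the largest rises led by Cdkn1a and other p53 targets, and the largest falls led by fat-cell and lipid-synthesis genes. Without the library labelled STZ-control 2 the counts were 891 higher and 862 lower. An alternative carried over from earlier work on these data left out 4 libraries, STZ-control 7 and 8 with PBS-cKOt 1 and 3, and gave 826 and 650. The 2 cKOt libraries did not share the high values of STZ-control 7 and 8, with mitochondrial shares of 12.1% and 18.4% and multi-mapping shares of 35.7% and 36.7%.

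**Figure D1:**
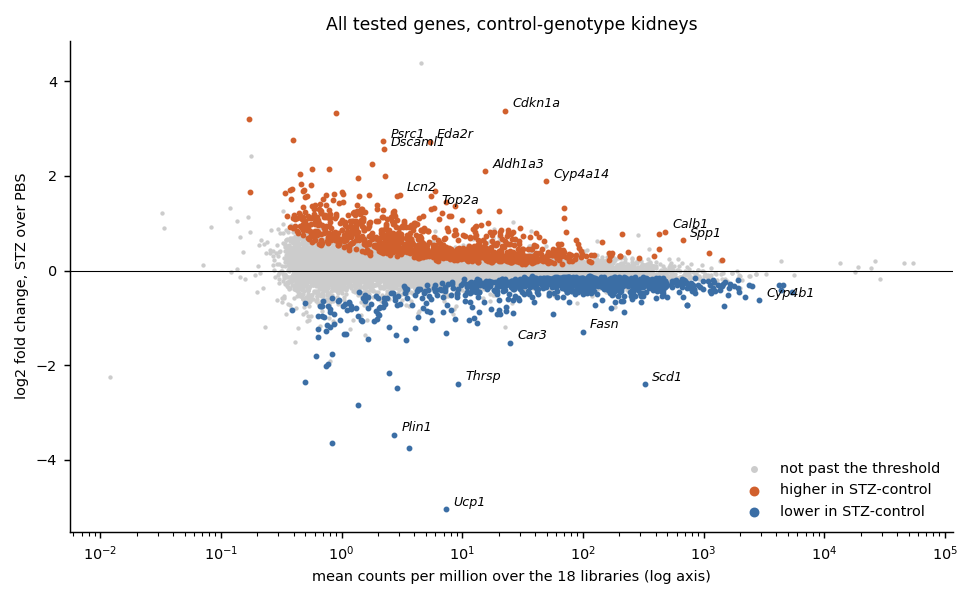
Each point is a gene, with its mean level over the 18 control-genotype libraries in CPM (x, log axis) and its log2 fold change of STZ-control over PBS-control (y). Orange points are the 992 genes past the threshold and higher, blue points the 927 lower, grey points the rest; Cdkn1a rises highest among the named genes (3.37) and Ucp1 falls lowest (-5.04).

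Genes of the p53 response rose together. p53 is a transcription factor that DNA damage stabilises; its targets halt the cell cycle, repair DNA or start cell death. Of the 25 members of the p53 target list 21 rose, where 6.34% of all tested genes were higher, and 0 fell. The list median was 0.66 against 0.00 over all tested genes. In 10 members every STZ-control library lay above every PBS-control library, a separation that 0.742% of all tested genes showed. Without the library labelled STZ-control 2, Sesn1 did not pass and 20 rose. Without the 4 libraries named above 20 rose and 1, Perp, fell.

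The window before the start of Cdkn1a is shown because it was the only window of the list in which a p53 site was found, and those of Ifit1, Bst2 and Top2a because they stand for the interferon and cell cycle genes described below. Sequences are the 250 bases before the start from RefSeq (GRCm38.p6), 5′ to 3′ on the strand of the gene. The windows lie at chr17:29090729-29090978 (plus strand) for Cdkn1a, chr19:34640639-34640888 (plus) for Ifit1, chr8:71537473-71537722 (minus) for Bst2 and chr11:99024190-99024439 (minus) for Top2a. Capitals mark the p53 site in Cdkn1a and the interferon-stimulated response element in Ifit1 and Bst2, searched as GAAA followed, after any 2 bases, by GAAA. In Top2a they mark the cell cycle homology region (TTTGAA or TTCGAA) and the CCAAT box.
Cdkn1a: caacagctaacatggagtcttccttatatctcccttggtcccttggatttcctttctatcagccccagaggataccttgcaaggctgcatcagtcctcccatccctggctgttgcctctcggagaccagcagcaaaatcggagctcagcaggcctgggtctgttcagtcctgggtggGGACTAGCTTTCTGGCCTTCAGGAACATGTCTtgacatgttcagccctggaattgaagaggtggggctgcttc
Ifit1: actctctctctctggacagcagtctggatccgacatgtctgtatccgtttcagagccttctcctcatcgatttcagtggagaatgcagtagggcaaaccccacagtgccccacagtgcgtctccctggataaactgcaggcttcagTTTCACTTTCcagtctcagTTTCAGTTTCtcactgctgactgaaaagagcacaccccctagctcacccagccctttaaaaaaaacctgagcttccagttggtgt
Bst2: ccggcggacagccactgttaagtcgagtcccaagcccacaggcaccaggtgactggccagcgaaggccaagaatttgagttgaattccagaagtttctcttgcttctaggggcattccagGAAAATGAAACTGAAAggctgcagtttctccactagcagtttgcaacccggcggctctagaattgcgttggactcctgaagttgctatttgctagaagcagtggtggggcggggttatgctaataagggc
Top2a: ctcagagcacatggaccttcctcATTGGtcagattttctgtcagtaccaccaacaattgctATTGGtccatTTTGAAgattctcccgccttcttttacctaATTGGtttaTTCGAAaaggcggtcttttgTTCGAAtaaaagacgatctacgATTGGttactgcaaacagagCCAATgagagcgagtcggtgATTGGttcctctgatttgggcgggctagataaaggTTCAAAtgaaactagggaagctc
Motifs were searched on both strands over 300 bases, 250 before and 50 after each start, and overlapping matches are merged in the capitals. The p53 site, written as 2 decamers with up to 13 bases between them, began 73 bases before the start of Cdkn1a. It was found in 1 of the 19 p53 list members with a window, and in 0.0740% of 27025 genes. A match is a description of these letters, not a binding site or a cause.

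Cdkn1a encodes p21, which blocks cyclin-dependent kinases (ENSMUSG00000023067, GRCm38 chromosome 17, 29090976 to 29100727). Its level ran from 2.86 to 5.55 CPM in PBS-control (median 4.00) and from 30.0 to 52.2 CPM in STZ-control (median 44.3). The groups were separated by a wide gap, and the library labelled STZ-control 2 was the highest. The difference was 3.37 ± 0.13 on the log2 scale (± SE; edgeR adjusted p = 2.88e-21), a 10.4-fold rise, and 3.33 without that library. Eda2r, a death receptor of the TNF receptor family (chromosome X, 97333840 to 97377216), ran from 0.724 to 2.00 CPM (median 1.43) in PBS-control and from 5.71 to 13.9 CPM (median 9.69) in STZ-control, a difference of 2.71 ± 0.17. Psrc1, which encodes a spindle microtubule protein, ran from 0.207 to 1.07 CPM (median 0.587) and from 2.67 to 5.18 CPM (median 3.72), a difference of 2.73 ± 0.19. No STZ-control library of either gene reached down to the PBS-control range.

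Of the other 18 members that rose 7 also separated the groups, and 11 overlapped. Phlda3, a repressor of AKT signalling, ran from 2.23 to 6.54 CPM in PBS-control and from 8.98 to 15.1 CPM in STZ-control (1.45 ± 0.14). Mdm2, the ubiquitin ligase that degrades p53, ran from 54.5 to 68.8 and from 71.2 to 84.8 CPM (0.43 ± 0.05), so a change under 2-fold still separated the groups. Ccng1, an abundant target that encodes cyclin G1, went from 315 ± 41.2 up to 539 ± 90.4 CPM (mean ± SD over 9 libraries a group, as elsewhere below). The apoptosis genes Aen (0.66 ± 0.06), Bbc3 (0.93 ± 0.20) and Bax (0.58 ± 0.13) rose, as did the stress hormone gene Gdf15 (1.37 ± 0.21; 6.83 to 19.8 CPM against 2.06 to 6.84). The 4 members that did not pass the threshold were Trp53 itself (0.13, adjusted p = 0.163), Pmaip1 (0.25, adjusted p = 0.365), Perp (-0.13, adjusted p = 0.135) and Rrm2b (-0.28, adjusted p = 0.0900), all by edgeR. The mean of Trp53 was 26.8 ± 2.02 CPM with PBS and 29.4 ± 2.59 with STZ. In whole-kidney RNA, a change in the number of cells of a type and a change in RNA per cell cannot be told apart, here or for the genes below.

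**Figure D2:**
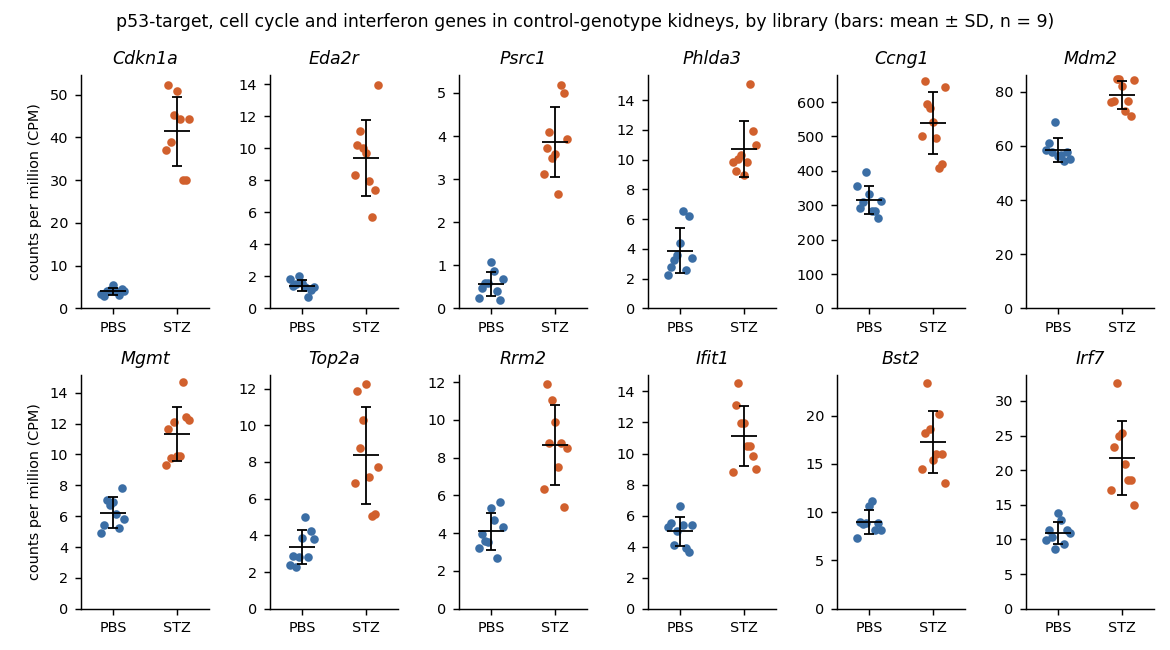
Levels in CPM (y) of 12 genes of the p53, DNA repair, cell cycle and interferon lists in the 9 PBS-control and 9 STZ-control libraries (points; bars are mean ± SD). For all of them except Rrm2, every STZ-control point lies above every PBS-control point, as in 0.742% of all tested genes. Rrm2 overlaps at 5.40 to 5.63 CPM.

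The largest rises outside the list fell into the same range. Dscaml1, a cell adhesion gene, stood at 0.316 to 0.985 CPM in PBS-control and 1.61 to 6.02 CPM in STZ-control (2.56 ± 0.24). Inka2, an inhibitor of the kinase PAK4, stood at 0.470 to 1.31 and 3.13 to 4.38 CPM (2.00 ± 0.14), Ddias, a DNA damage-induced apoptosis suppressor, at 1.01 to 2.10 and 2.67 to 5.67 CPM (1.57 ± 0.16), and the phospholipase C gene Plcd4 at 2.22 to 3.45 and 6.90 to 10.2 CPM (1.57 ± 0.10). None of these 4 overlapped between groups, a separation that 0.742% of all tested genes showed. They were picked from the largest rises of this same comparison. Aldh1a3, which makes retinoic acid, was less regular. It ran from 1.81 to 16.2 CPM in PBS-control and from 3.38 to 50.5 CPM in STZ-control (2.09 ± 0.52, edgeR adjusted p = 0.00657), with 6 STZ-control libraries above every PBS-control library. With limma voom and quality weights its adjusted p was 0.0793.

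Of 22 DNA repair genes 7 rose, where 6.34% of all tested genes were higher, and none fell, with a median of 0.09. Without the 4 libraries 6 rose. The member with the smallest adjusted p was Mgmt, the enzyme that takes alkyl groups off guanine in DNA. It ran from 4.93 to 7.85 CPM (median 6.16) in PBS-control and from 9.34 to 14.7 CPM (median 11.7) in STZ-control, without overlap (0.86 ± 0.10, edgeR adjusted p = 2.20e-07). The homologous recombination gene Brca1 rose (0.92 ± 0.19) at a level of 1.04 ± 0.192 CPM in PBS-control, with 8 of 9 STZ-control libraries above the PBS-control range.

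Genes of cell division rose as well, at low levels. Of 23 cell cycle and replication genes 19 rose and 0 fell, with a median of 0.85, where 6.34% of all tested genes were higher. The count was 18 without the library labelled STZ-control 2 and 20 without the 4 libraries. In 6 members every STZ-control library lay above every PBS-control library, against 0.742% of all tested genes. Top2a, the topoisomerase of dividing cells, ran from 2.3 to 5.02 CPM (median 2.86) in PBS-control and from 5.05 to 12.2 CPM (median 7.72) in STZ-control (1.32 ± 0.18, edgeR adjusted p = 3.17e-06). The groups touched without overlapping. The proliferation marker Mki67 rose from 6.36 ± 1.46 to 13.4 ± 3.03 CPM, the mitotic kinase gene Cdk1 from 1.63 ± 0.499 to 3.78 ± 0.880, and Ccna2, which encodes cyclin A2, from 3.38 ± 0.744 to 6.30 ± 1.22. Rrm2, a subunit of the enzyme that makes deoxynucleotides, ran from 2.69 to 5.63 and from 5.40 to 11.9 CPM, with 1 STZ-control library inside the PBS-control range (1.08 ± 0.12).

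The abundant members of the list moved less. Pcna, the sliding clamp of DNA polymerase, rose by 0.18 ± 0.05, and Ccnd1, which encodes cyclin D1, was at 231 ± 37.6 and 275 ± 49.1 CPM and did not pass (0.25, edgeR adjusted p = 0.113). The cyclin E genes Ccne1 (0.46) and Ccne2 (0.44) and the helicase gene Mcm6 (0.39) did not pass either, the last with 1.94 to 25.5 CPM within PBS-control alone. In the promoter windows, the cell cycle homology region was found in 8 of the 17 members with a window against 21.7% of all genes, and the CCAAT box in 14 of 17 against 41.1%. The Top2a window printed above holds both. Of the 17 members with a window 15 rose, among them all 8 with a cell cycle homology region.

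Interferon-stimulated genes, an antiviral programme that STAT2 and IRF9 help to switch on, rose in 12 of 16 members and fell in 0. Of all tested genes 6.34% were higher. The list median was 0.53. In 8 members every STZ-control library lay above every PBS-control library, against 0.742% of all tested genes. Ifit1, which binds viral RNA, ran from 3.67 to 6.62 CPM (median 5.29) in PBS-control and from 8.80 to 14.5 CPM (median 10.5) in STZ-control (1.15 ± 0.12, edgeR adjusted p = 1.23e-08). Bst2, which tethers virus particles to the cell (tetherin), ran from 7.28 to 11.2 CPM (median 8.83) and from 13.1 to 23.4 CPM (median 16; 0.94 ± 0.10). Irf7, the regulator of interferon genes, rose from 10.9 ± 1.64 to 21.8 ± 5.37 CPM. Each of these 3 was higher in every STZ-control animal than in any PBS-control animal. The upstream factors moved less: Stat2 rose by 0.29 ± 0.05 and Irf9 by 0.39 ± 0.07.

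Mx1 (0.19), Rsad2 (0.19), Ifi44 (0.21) and Gbp2 (0.15) did not pass the threshold (edgeR adjusted p from 0.237 to 0.548). The Ifit genes resemble each other, and multi-mapping reads were not assigned to any gene, so their separate levels are uncertain. The response element was found in 8 of the 13 members with a window against 3.99% of all genes. These 8 were Isg15, Ifit1, Ifit3, Stat2, Bst2 and Gbp3, which rose, and Rsad2 and Gbp2, which did not pass. Of the 13 members with a window 10 rose, so members without the element rose too. Without the library labelled STZ-control 2 the list had 11 higher members.

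Among chemokines, Cxcl10, an interferon-induced attractant of T cells, ran from 3.31 to 7.19 CPM (median 5.29) in PBS-control and from 7.89 to 12.8 CPM (median 8.87) in STZ-control, without overlap (0.89 ± 0.13). The monocyte attractant gene Ccl2 rose from 0.517 ± 0.200 to 0.984 ± 0.269 CPM, and Nfkb2 rose by 0.28 ± 0.07. These were 3 of the 11 tested members of the chemokine list, where 6.34% of all tested genes were higher. The other 6, Ccl7, Cxcl2, Il6, Tnf, Saa1 and Saa3, were below the filter on low counts. Of 20 complement and antigen presentation genes 6 rose, against the same 6.34% of all tested genes. Among them were the peptide transporter gene Tap1 (0.46 ± 0.09) and C1qb of the complement starter C1q (0.54 ± 0.11). C1qb was highest in the library labelled STZ-control 2, at 25.2 CPM against 12 to 18.1 in the other STZ-control libraries (0.43 without it). Without that library the list had 4 higher members, and without the 4 libraries named above it had 10. Its partner C1qa (0.35 ± 0.11, edgeR adjusted p = 0.0360) had an adjusted p of 0.109 without the library labelled STZ-control 2. Of the 8 macrophage markers the 3 C1q genes rose, 1 without that library and 4 markers without the 4 libraries. Csf1r (-0.10, adjusted p = 0.390) and Adgre1 (0.31, adjusted p = 0.275) did not pass, Adgre1 being at 0.51 (adjusted p = 0.0228) without the 4, and the summed level of all 8 markers was 117 ± 8.27 and 129 ± 17.5 CPM (exact permutation adjusted p = 0.179). T-cell markers had 0 of 5 tested members past the threshold by edgeR and by DESeq2 (2 at an unadjusted p under 0.05).

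Injury markers of the tubule rose in 7 of 15 tested members and fell in 0 (median 0.31). Of all tested genes 6.34% were higher. Lcn2, which encodes the iron-binding injury marker NGAL, ran from 0.831 to 2.13 CPM (median 1.61) in PBS-control and from 2.21 to 8.63 CPM (median 3.69) in STZ-control, without overlap (1.6 ± 0.26, edgeR adjusted p = 5.04e-05). Havcr1, which encodes the proximal injury marker KIM-1, ran from 1.37 to 4.03 and from 2.26 to 8.21 CPM, so the groups overlapped (0.91 ± 0.23, adjusted p = 0.00660; 0.72 without the library labelled STZ-control 2, which was highest). Both stood at a few CPM. At higher levels, Clu, the chaperone clusterin, ran from 124 to 205 and from 211 to 392 CPM (0.77 ± 0.12), and Spp1, which encodes the matrix protein osteopontin, rose from 527 ± 68.5 to 822 ± 100.1 CPM (0.64 ± 0.10). Krt18, a keratin of simple epithelia, rose by 0.76 ± 0.18 and the intermediate filament gene Vim by 0.31 ± 0.09 (0.21 without the 4 libraries, edgeR adjusted p = 0.0696). Sox9, Timp1 and Cdkn2a were below the filter.

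Of 20 tested matrix genes 5 rose, where 6.34% of all tested genes were higher, and 0 fell, with a median of 0.29. The gelatinase gene Mmp2 rose from 3.59 ± 0.709 to 5.53 ± 0.834 CPM, Acta2, the smooth muscle actin of mural cells and myofibroblasts, by 0.45 ± 0.12 and the matrix gene Sparc by 0.32 ± 0.10 (adjusted p = 0.0594 without the library labelled STZ-control 2). Col1a1 (0.41, edgeR adjusted p = 0.0964), Fn1 (0.37, adjusted p = 0.156) and Tgfb1 (0.15, adjusted p = 0.321) did not pass. The count depended on the libraries included. It was 2 without the library labelled STZ-control 2 and 9 without the 4 libraries, where Fn1, Col3a1, Col4a1, Col4a2 and Col6a1 passed as higher and Acta2 (edgeR adjusted p = 0.0798) did not. The summed level of 9 fibroblast and mural markers was 242 to 342 CPM in PBS-control and 299.9 to 381 CPM in STZ-control (means 287 ± 34.0 and 336 ± 24.6, exact two-sided permutation adjusted p = 0.0434 over 24 library measures). Its part in the matrix result was not tested.

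**Figure D3:**
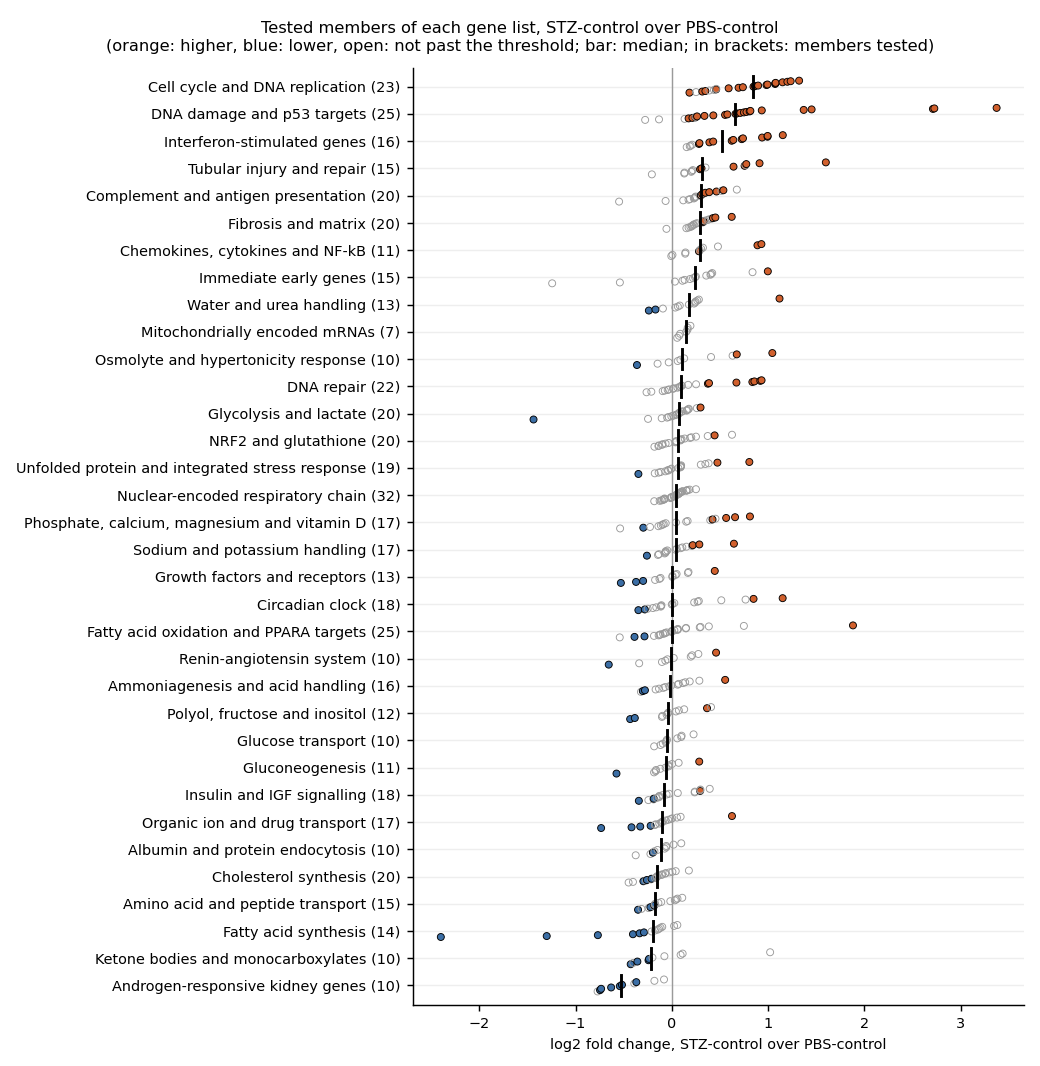
Log2 fold change of STZ-control over PBS-control (x) of each tested member of the 34 pathway lists (rows; number tested in brackets). Orange points passed the threshold as higher, blue as lower, open points did not pass, and the bar is the median; cell cycle (0.85), p53 (0.66) and interferon (0.53) medians lie farthest right and that of androgen-responsive genes (-0.53) farthest left.

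Lipid synthesis genes were among the largest falls. Of 14 fatty acid synthesis genes 6 fell and 0 rose (median -0.19; 5.93% of all genes were lower), and 2 lay below every PBS-control library in every STZ-control library, against 0.480% of all genes. Scd1, the desaturase that makes oleate (ENSMUSG00000037071, chromosome 19, 44394455 to 44407879), ran from 222 to 1135 CPM (median 356) in PBS-control and from 68.5 to 179 CPM (median 87.5) in STZ-control. It fell by 2.40 on the log2 scale (SE 0.34, edgeR adjusted p = 6.23e-06), which put PBS-control 5.28-fold above STZ-control. Fasn, the fatty acid synthase, ran from 73.8 to 319 CPM (median 108) and from 45.7 to 73.4 CPM (median 55.6), and fell by 1.30 (SE 0.26). The groups did not overlap for either gene, and the PBS-control animals differed far more among themselves than the STZ-control animals did.

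The same spread was seen in other lipogenic genes. Thrsp, a regulator of lipogenesis, ran from 3.97 to 50.2 CPM in PBS-control and from 1.61 to 3.79 CPM in STZ-control (-2.39 ± 0.50). Acaca, the acetyl-CoA carboxylase that feeds Fasn, ran from 18.5 to 48.6 and from 15.2 to 18.7 CPM (-0.77 ± 0.16). Me1 (-0.29 ± 0.06), Fads2 (-0.40 ± 0.10) and Acly (-0.34 ± 0.09) fell less, at levels of 83.4 to 731 CPM in PBS-control. Acly was at -0.21 without the 4 libraries (edgeR adjusted p = 0.0549). Of 20 cholesterol synthesis genes 3 fell and 0 rose, where 5.93% of all tested genes were lower. Among them Hmgcs1, which makes the precursor of mevalonate, went from 765 ± 65.1 to 639 ± 54.3 CPM. Without the 4 libraries Cyp51 and Sc5d did not pass and 1 member was left.

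The fat-cell genes Ucp1, Cidea, Plin1, Cidec and Adipoq made up 5 of the 12 largest falls. Of the 5 tested fat-cell markers 4 fell (median -2.47), where 5.93% of all tested genes were lower. Lep and Retn were below the filter. Plin1, the coat protein of lipid droplets, ran from 0.317 to 14.1 CPM (median 1.8) in PBS-control and from 0 to 1.71 CPM (median 0.181) in STZ-control (-3.47 ± 0.78, edgeR adjusted p = 0.00267). Ucp1, the uncoupling protein of brown fat, had a PBS-control median of 2.68 CPM and a single library at 107, and ran from 0 to 3.25 CPM in STZ-control. It fell by 5.04 (SE 0.99), by 2.71 without PBS-control 8, and its adjusted p with DESeq2 was 0.0503. The lipid droplet genes Cidea (-3.76 ± 0.81) and Cidec (-2.47 ± 0.62) fell with them. Adipoq, the adiponectin gene (-2.17 ± 0.73, adjusted p = 0.0444), had an adjusted p of 0.0999 without PBS-control 4. The list had 3 lower members without the library labelled STZ-control 2 or without the 4 libraries, and 2 with DESeq2.

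The summed level of the 7 fat-cell markers was 3.39 to 158 CPM in PBS-control and 1.27 to 13.3 CPM in STZ-control (exact permutation adjusted p = 0.110). PBS-control 8, 6 and 4 had the highest sums (158, 55.8 and 42.5 CPM). The same 3 libraries were also the highest of PBS-control in Scd1 (1029, 1135 and 746 CPM), Fasn (319, 276 and 143 CPM) and Thrsp (50.2, 28.3 and 23.2 CPM). They were the highest in Acaca as well (43.9, 48.6 and 35.8 CPM). The share of fat tissue in the lipogenic falls was not tested. In PBS-control 1, 2, 3, 5 and 7 the sum was 3.39 to 10.6 CPM, inside the STZ-control range, and there Scd1 was 222 to 356 CPM, above the highest STZ-control library (179). Fasn was 73.8 to 109 CPM in those 5, of which the lowest stood just above the highest STZ-control library (73.4).

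Apart from Prkar2b, the other genes among the 12 largest falls were less uneven within PBS-control. Car3, a carbonic anhydrase gene, ran from 19.5 to 54.7 CPM in PBS-control and from 6.39 to 22.7 CPM in STZ-control (-1.52 ± 0.31), with 8 of 9 STZ-control libraries below every PBS-control library. Nap1l5, a nucleosome assembly protein gene, ran from 2.62 to 5.61 and from 0.952 to 2.29 CPM without overlap (-1.37 ± 0.21). The carboxylesterase gene Ces1g fell by 1.21 (SE 0.20). Prkar2b, a regulatory subunit of protein kinase A, fell by 1.31 (SE 0.30), and in PBS-control it ran from 3.86 to 25.7 CPM. It was highest in PBS-control 8, 6 and 4 (25.7, 16.2 and 14.5 CPM), as was Car3 (43.3, 54.7 and 52.3 CPM). The share of fat tissue in these falls was not tested.

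**Figure D4:**
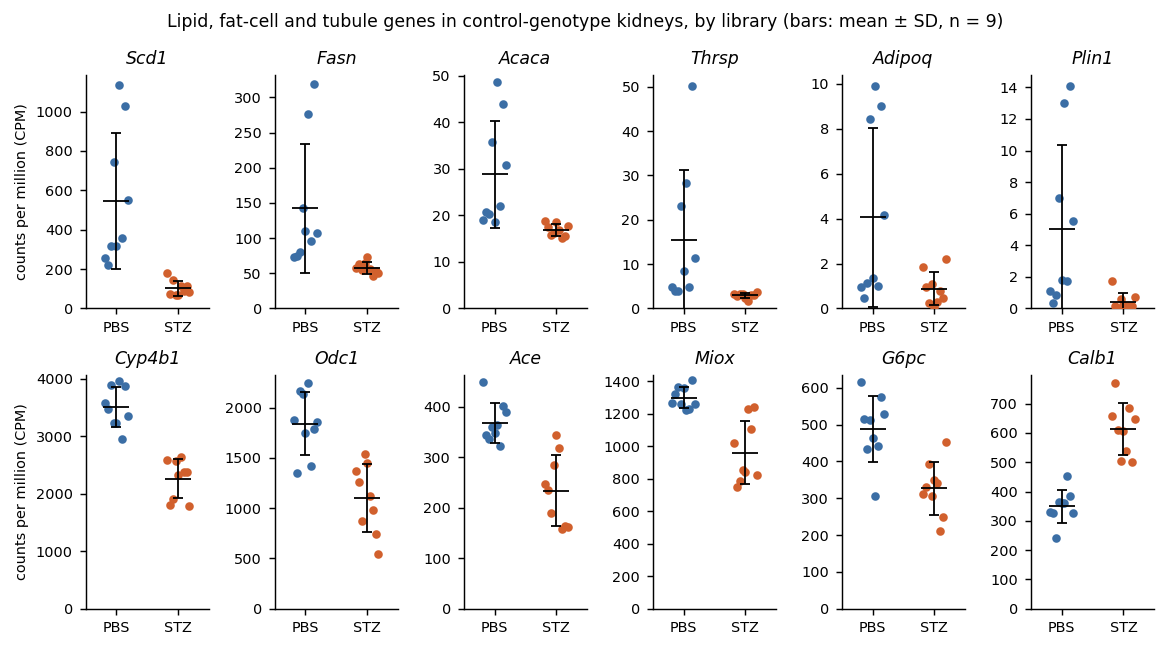
Levels in CPM (y) of 12 lipid, fat-cell and tubule genes in the 9 PBS-control and 9 STZ-control libraries (points; bars are mean ± SD). Scd1, Fasn and Thrsp spread widely in PBS-control and narrowly in STZ-control; Cyp4b1 (2946 to 3959.7 CPM with PBS, 1789.6 to 2632 with STZ) and Calb1 (242 to 454 with PBS, 502 to 772 with STZ) do not overlap.

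Of 25 fatty acid oxidation genes 1 was higher and 2 lower (median 0.00), close to the 6.34% and 5.93% of all tested genes. Without the 4 libraries 0 were higher and 1 was lower. Cd36, a fatty acid transporter gene, fell by 0.39 (SE 0.10), and was at -0.29 without the 4 libraries (edgeR adjusted p = 0.0713). Cyp4a14, a fatty acid hydroxylase that PPARA induces, ran from 5.45 to 49.3 CPM in PBS-control and from 11.6 to 323 CPM in STZ-control (1.88 ± 0.63, edgeR adjusted p = 0.0434). STZ-control 9 alone held the highest value, and without it the difference was 1.16 (adjusted p = 0.196). Cyp4a14 belongs to a family of similar genes, and reads shared within the family were not measured here, so its level is uncertain. The entry enzyme gene Cpt1a was at 595 ± 46.0 and 541 ± 59.4 CPM and did not pass (adjusted p = 0.177). Of 10 ketone body and monocarboxylate genes 4 fell and 0 rose, where 5.93% of all tested genes were lower. The count was 3 without the library labelled STZ-control 2 or without the 4. Acat1, the mitochondrial thiolase, fell from 1054 ± 77.7 to 822 ± 85.9 CPM (-0.36 ± 0.06), and the monocarboxylate transporter gene Slc5a8 fell by 0.43 (SE 0.11). Respiratory chain genes had no call, with 0 of 32 nuclear and 0 of 7 tested mitochondrial genes past the threshold by edgeR or DESeq2 (4 and 0 at an unadjusted p under 0.05).

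Glucose handling changed in few genes. Of the 10 glucose transport genes 0 passed by edgeR or DESeq2, and 0 had an unadjusted p under 0.05. Slc5a2, which encodes the main apical glucose transporter SGLT2, ran from 248 to 399.5 CPM (median 337) in PBS-control and from 193 to 362 CPM (median 277) in STZ-control (-0.18 ± 0.13, adjusted p = 0.360). Slc2a2, which encodes GLUT2, ran from 196 to 288 and from 137 to 283 CPM (-0.12 ± 0.13, adjusted p = 0.586), and Slc5a1, which encodes SGLT1, from 62.1 to 82.2 and from 59.7 to 75.6 CPM (-0.06 ± 0.08, adjusted p = 0.625). All 3 overlapped broadly between groups. Of 11 gluconeogenic genes 1 fell and 1 rose, where 5.93% of all tested genes were lower and 6.34% higher. G6pc, the enzyme that releases free glucose, fell from 488 ± 89.7 to 327 ± 71.7 CPM (-0.58 ± 0.12, edgeR adjusted p = 0.00120). Its range was 307 to 615 against 211 to 454 CPM. Pck2, the mitochondrial phosphoenolpyruvate carboxykinase, rose by 0.28 ± 0.07. The cytosolic enzyme gene Pck1 (2034 ± 516 and 1809.7 ± 284 CPM, adjusted p = 0.455) and Fbp1 (991 ± 72.6 and 884 ± 112 CPM, adjusted p = 0.159) did not pass.

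In glycolysis, Pkm rose by 0.30 ± 0.09 (edgeR adjusted p = 0.0257; 0.0625 without STZ-control 7). Hk2 passed as lower (-1.44 ± 0.47) on a single PBS-control library at 10.9 CPM, and without it the adjusted p was 0.312. In polyol and inositol metabolism, Miox, the oxygenase that opens the inositol ring, ran from 1223 to 1408 CPM in PBS-control and from 751 to 1243 CPM in STZ-control (-0.43 ± 0.11), with 7 of 9 STZ-control libraries below every PBS-control library. Glyctk, a glycerate kinase of fructose breakdown, fell from 234 ± 14.1 to 179 ± 28.3 CPM. Isyna1, which makes inositol, rose by 0.37 ± 0.10 (adjusted p = 0.0642 without the 4 libraries). Akr1b3, which encodes the aldose reductase of the polyol pathway, ran from 29.9 to 82.7 and from 30.9 to 118 CPM and did not pass (0.41, adjusted p = 0.359). Among osmolyte genes, the betaine transporter gene Slc6a12 ran from 1.37 to 2.89 and from 1.53 to 8.82 CPM (1.04 ± 0.25). With limma voom and quality weights its adjusted p was 0.0952. The taurine transporter gene Slc6a6, at higher levels, fell from 440 ± 61.8 to 342 ± 63.0 CPM (-0.36 ± 0.11, edgeR adjusted p = 0.0215). The urea transporter gene Slc14a2 rose (0.67 ± 0.20, edgeR adjusted p = 0.0221). Neither Slc6a6 nor Slc14a2 passed without the 4 libraries (edgeR adjusted p = 0.0981 and 0.0792).

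Insulin signalling genes showed 1 rise and 2 falls among 18, close to the 6.34% and 5.93% of all tested genes, and 1 of each without the 4 libraries, where Irs1 and Akt2 did not pass and Foxo3 passed as higher. Igfbp4, an IGF-binding protein gene, fell from 738 ± 42.0 to 582 ± 64.2 CPM, with 8 of 9 STZ-control libraries below every PBS-control library. Akt2 fell by 0.19 (SE 0.05; edgeR adjusted p = 0.0521 without STZ-control 8), and the insulin receptor substrate gene Irs1 rose by 0.29 ± 0.10 (adjusted p = 0.0384; up to 0.0979 when single libraries were left out). Among growth factors, Gas6, the ligand of the receptor AXL, ran from 296 to 422 CPM (median 376) in PBS-control and from 435 to 531 CPM (median 506) in STZ-control, without overlap (0.45 ± 0.06, adjusted p = 5.43e-06). Met, the receptor of hepatocyte growth factor, fell from 261 ± 34.3 to 181 ± 32.7 CPM and Fgf1 from 294 ± 18.7 to 239 ± 22.5 CPM. Egf, a product of the distal tubule, passed narrowly (-0.37 ± 0.13, adjusted p = 0.0497). Its adjusted p was 0.0703 without the library labelled STZ-control 2, and without the 4 libraries it was at -0.23 (adjusted p = 0.172).

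Proximal tubule genes were lower. The summed level of 12 proximal markers ran from 16965 to 19692 CPM (median 18770.0) in PBS-control and from 14066 to 17433 CPM (median 14478) in STZ-control (means 18437 ± 919 and 15163 ± 1211, exact two-sided permutation adjusted p = 0.00197 over 24 library measures). The groups overlapped at the margin. Of the 12 members 4 fell and 0 rose, where 5.93% of all tested genes were lower. The count was 3 without the library labelled STZ-control 2 or without the 4. Slc34a1 fell from 5005 ± 335 to 4075 ± 548 CPM (-0.30 ± 0.08) and Slc27a2, a fatty acid transporter, from 4694 ± 407 to 3781 ± 368 CPM (-0.31 ± 0.06). The changes were small beside those of the genes above.  Of the marker lists of other kidney cells, podocytes (0 of 9) and endothelium (0 of 8) had no member past the threshold by edgeR or DESeq2, and 2 and 0 at an unadjusted p under 0.05.

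Genes that androgens raise in the male proximal tubule fell in 6 of 10 members and rose in 0 (median -0.53). Of all tested genes 5.93% were lower. The labels used here give no sex, and the Y-linked gene Ddx3y was at 22.9 CPM or more in all 18 libraries. Cyp4b1, an abundant cytochrome P450 gene, ran from 2946 to 3959.7 CPM (median 3478) in PBS-control and from 1789.6 to 2632 CPM (median 2372) in STZ-control, without overlap (-0.63 ± 0.12, edgeR adjusted p = 0.000533). Odc1, the first enzyme of polyamine synthesis, ran from 1351 to 2241 and from 541 to 1541 CPM (-0.75 ± 0.14). Cyp2j13 did not overlap (448 to 611 against 282 to 440.3 CPM, -0.54 ± 0.13). Kap, the kidney androgen-regulated protein gene, ran from 23125 to 40044 and from 13952 to 43696 CPM and did not pass (-0.18, adjusted p = 0.480), nor did Gusb (-0.39, adjusted p = 0.172). Without the 4 libraries Slco1a1 and Acsm3 did not pass and 4 members fell. Androgen levels were not analysed here, and the fall of proximal markers moved with these genes; its part was not tested.

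In the renin-angiotensin system, substrate and converting enzyme moved in opposite directions. Agt, which encodes the substrate angiotensinogen, ran from 31.7 to 48.3 CPM (median 38.4) in PBS-control and from 44.6 to 68.6 CPM (median 49.9) in STZ-control (0.46 ± 0.09, edgeR adjusted p = 0.00100). Ace, the converting enzyme, ran from 323 to 449 CPM (median 360.2) and from 158 to 344 CPM (median 236; -0.66 ± 0.12, adjusted p = 0.000443). In each gene 8 of 9 STZ-control libraries lay outside the PBS-control range. Ren1, which encodes renin, was at 54.8 ± 12.2 and 62.8 ± 17.6 CPM and did not pass (adjusted p = 0.452).

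Some genes of the distal convoluted tubule, where calcium and magnesium are reclaimed, rose. Calb1, the calcium-binding protein calbindin-D28k, ran from 242 to 454 CPM (median 359) in PBS-control and from 502 to 772 CPM (median 610.0) in STZ-control, without overlap (0.81 ± 0.14, edgeR adjusted p = 8.32e-05). The magnesium channel gene Trpm6 (14.9 ± 2.06 to 22 ± 2.89 CPM), the calcium channel genes Trpv5 (0.42 ± 0.11) and Trpv6 (0.66 ± 0.16) and the calcium buffer gene Pvalb (0.72 ± 0.18) rose as well. Trpv5 and Trpv6 are not in the marker list of the segment. Of the 17 phosphate, calcium, magnesium and vitamin D genes 4 rose, 1 fell and 12 did not pass (median 0.04). Of all tested genes 6.34% were higher and 5.93% lower. Slc12a3, the sodium chloride cotransporter that defines this segment, did not (824 ± 114 and 751 ± 76.6 CPM, adjusted p = 0.409). Of the 4 markers of the segment 3 rose, where 6.34% of all tested genes were higher. The summed level of the 4 was 1197 ± 163 and 1399.6 ± 117 CPM (exact permutation adjusted p = 0.0570).

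Other transport genes moved in part of their lists, where 6.34% of all tested genes were higher and 5.93% lower. Of 17 organic ion and drug transport genes 1 rose and 4 fell. Of 15 amino acid and peptide transport genes 0 rose and 3 fell. Without the 4 libraries these falls were 2 and 1. Among 13 water and urea genes 1 rose and 2 fell, and the same held for 16 ammoniagenesis and acid genes. Sgk1, a kinase that aldosterone induces, rose from 68.6 ± 15.8 to 107 ± 29.0 CPM (edgeR adjusted p = 0.00396), and Scnn1a, a subunit of the epithelial sodium channel, by 0.29 ± 0.09 (adjusted p = 0.0852 without STZ-control 7). Without the 4 libraries 1 of the 17 sodium and potassium genes rose, against 3 with them, where 6.34% of all tested genes were higher. The water channel genes Aqp3 (-0.24 ± 0.05) and Aqp11 (-0.17 ± 0.04) fell, while Aqp2 (0.28, adjusted p = 0.320) did not pass. The drug exporter gene Slc47a1 fell from 836 ± 69.6 to 666 ± 78.6 CPM and the organic anion transporter gene Slc22a8 by 0.42 (SE 0.12). Abcc4, an efflux pump gene, rose from 37.5 ± 8.49 to 57.8 ± 21.8 CPM. The acid and amino acid carrier genes Slc9a3 (-0.30 ± 0.08) and Slc6a20b (-0.22 ± 0.05) fell, as did the amino acid carrier gene Slc7a13 (-0.35 ± 0.12; edgeR adjusted p = 0.0408, and 0.122 without the 4 libraries). Of the 10 genes of protein endocytosis 1 passed as lower, where 5.93% of all tested genes were lower. It was Dab2, an adaptor of megalin (-0.20 ± 0.06). None passed without the library labelled STZ-control 2 (Dab2 edgeR adjusted p = 0.0628).

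Stress programmes outside the p53 list moved in few members. Of 20 NRF2 and glutathione genes 1 rose, the quinone reductase gene Nqo1 (0.44 ± 0.12), where 6.34% of all tested genes were higher and 5.93% lower. By DESeq2, 2 members of this list passed as higher and 1 as lower, and 8 had an unadjusted edgeR p under 0.05. Hmox1 did not pass (29.3 ± 4.17 and 31.4 ± 6.57 CPM, edgeR adjusted p = 0.655). Of 19 unfolded protein and integrated stress genes 2 rose and 1 fell, beside the same 6.34% and 5.93% of all tested genes. Those that rose were the pseudokinase gene Trib3 (0.80 ± 0.18) and the asparagine synthetase gene Asns (0.47 ± 0.12). In that list 6 members had an unadjusted edgeR p under 0.05. Edem1, which sends misfolded proteins to degradation, fell from 162 ± 16 to 127 ± 17.8 CPM without overlap between groups. Of 15 immediate early genes 1 rose, close to the 6.34% of all tested genes that were higher. It was Atf3 (1.00 ± 0.22), with STZ-control 5 highest at 4.78 CPM.

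Of 18 clock genes 2 rose and 2 fell, where 6.34% of all tested genes were higher and 5.93% lower. Without the library labelled STZ-control 2, 3 rose and 2 fell. Arntl stood at 1.09 to 2.40 CPM in PBS-control and at 1.18 to 2.64 in the other 8 STZ-control libraries, a difference of 0.77 with that library (edgeR adjusted p = 0.0997) and 0.01 without it (adjusted p = 0.958). Ciart differed by 0.27 with it (adjusted p = 0.488) and 0.42 without it (adjusted p = 0.0712). Nfil3, a clock-controlled repressor gene, rose by 1.15 ± 0.28, and by 0.69 without that library. Npas2 rose by 0.85 ± 0.22, and by 0.59 without it, and Per1, a clock repressor gene, passed as higher without it (0.59). The clock output factors Hlf (164 ± 13.6 to 129 ± 16.5 CPM) and Tef (490.4 ± 32.5 to 404 ± 61.2 CPM) fell. All samples came from a single hour of the day, so a shift in phase and a change in level cannot be told apart.

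In cKOt mice, whose libraries are not shared with the control contrast, 939 genes were higher with STZ (6.00%) and 880 lower (5.63%). Higher in both genotypes were 373, which is 37.6% of those higher in control and 39.7% of those higher in cKOt mice. Lower in both were 320 (34.5% and 36.4%), and 2 were called in opposite directions. All 24 of the largest rises and falls named here had the same sign in cKOt mice, and 15 passed the threshold there. Eda2r rose by 2.71 in control and 2.82 in cKOt mice, Mgmt by 0.86 and 0.93, Calb1 by 0.81 and 0.84, and Scd1 fell by 2.40 and 2.85. The test of the difference itself passed for 7 genes (0.0448% of those tested) by edgeR and for 20 by DESeq2.

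**Figure D5:**
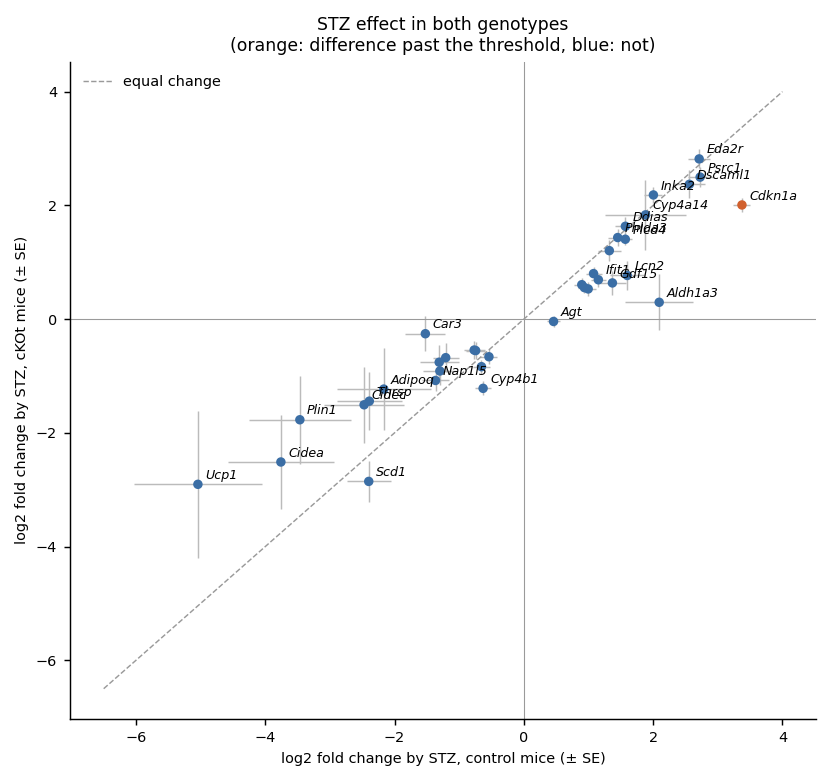
Log2 fold change by STZ in control mice (x) and in cKOt mice (y), each ± SE, for the largest rises and falls and the members named from 5 gene lists. Points near the dashed line had changes of like size; Cdkn1a (orange), at 3.37 and 2.01, is the plotted gene whose difference passed the test.

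Of those 7 genes, 3 also passed in control mice. Cdkn1a rose by 3.37 ± 0.13 in control and by 2.01 ± 0.12 in cKOt mice, a difference of -1.37 ± 0.17 (edgeR adjusted p = 1.93e-05). Its mean in PBS-cKOt was 22.1 ± 3.82 CPM, already above PBS-control (3.99 ± 0.828), and in STZ-cKOt 88.8 ± 14.5 CPM. The replicative helicase gene Mcm2, also named after its values were seen, rose in control mice (0.35 ± 0.06) and was at -0.06 in cKOt mice (difference -0.41 ± 0.08, adjusted p = 0.0388). The apolipoprotein gene Apoc3, named after its values were seen, was at 3.71 ± 0.454 CPM with PBS and 6.65 ± 2.07 with STZ in control mice and fell by 0.41 in cKOt mice (difference -1.24 ± 0.21, adjusted p = 0.00405). Clu, at 0.77 and 0.05, and Agt, at 0.46 and -0.04, passed in control mice alone, and the test of their difference did not pass (adjusted p = 0.120 and 0.198).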

How the data were processed

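Polyadenylated RNA of whole mouse kidneys was sequenced from TruSeq stranded libraries, per the labels' protocols. The authors deposited whole-number read counts per gene for each of the 36 libraries. Tools named in the submitters' processing notes are HTSeq 0.9.1, STAR 2.5.3a and cutadapt 1.8, with the build GRCm38; the strand setting and counting options are not given in the sources used here. Rows that name no gene were left out of library sizes; no feature took 4.79 ± 0.345% of reads in PBS-control and 4.50 ± 0.335% in STZ-control. Groups came from the sample titles.

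Counts were filtered with filterByExpr, normalised by TMM and tested by the edgeR 4.0.16 quasi-likelihood test (R 4.3.3) with a mean for each of the 4 groups over all 36 libraries and Benjamini-Hochberg adjustment over 15637 genes (threshold 0.05). The difference between genotypes was an interaction contrast. Library measures were compared by exact two-sided permutation. The fit was checked on simulated counts. DESeq2 1.42.0, limma 3.58.1 voom, other filters, the 2 control groups alone, a replicate block and left-out libraries were the alternatives.

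Genes and lists were chosen with earlier results of these data known. Genes were named by this rule: the 12 largest called rises and falls of genes averaging 2 CPM or more, up to 3 called members of each of 34 pathway lists and 2 of each of 18 marker lists with the smallest adjusted p, and 11 genes whatever their value. Other list members were named after their values were seen. RefSeq promoter windows (GRCm38.p6) were matched by symbol.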

Additional observations from a re-analysis of the deposited data

Results flagged for a closer look

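The highest or lowest library of a group was compared with its nearest neighbour for each named gene and library measure. In 25 of 276 groups of 9 libraries (9.06%) that gap, as a share of the group's range, was over Dixon's 95% critical value. With normally distributed values in independent groups about 5% of groups, or 13.8 here, would be over it. These groups share libraries and their CPM values need not be normally distributed, so 25 cannot be set against 13.8. The library labelled STZ-control 2 stood apart in Arntl (13.4 CPM), Nfil3 (12 CPM), Havcr1 (8.21 CPM), C1qb (25.2 CPM) and the summed neutrophil markers (6.85 CPM) as highest, and in Ciart as lowest (1.95 CPM). STZ-control 7 was highest in Phlda3 (15.1 CPM), Clu (392 CPM) and Trpv6 (3.58 CPM).

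STZ-control 1 was highest of its group in the fat-cell genes Plin1 (1.71 CPM), Cidea (2.80 CPM) and Ucp1 (3.25 CPM). In PBS-control, number 8 was highest in Ucp1 (107 CPM), Hk2 (10.9 CPM) and the summed fat-cell markers (158 CPM). Single libraries of STZ-control stood apart in Cyp4a14 (number 9, 323 CPM), Atf3 (number 5, 4.78 CPM), Trpm6 (number 4, lowest at 15.6 CPM) and the summed B and plasma cell markers (number 4, 191 CPM). In PBS-control they did so in Havcr1 (number 6, 4.03 CPM), Pck2 (number 4, lowest at 10.2 CPM) and Igfbp4 (number 1, lowest at 644 CPM). PBS-control 3 had the highest multi-mapping share (37.8%) and mitochondrial share (21.5%) of its group and the lowest summed endothelial markers (319 CPM).

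The STZ response differed between genotypes, by the edgeR interaction test, in Cdkn1a (cKOt minus control -1.37 on the log2 scale), Apoc3 (-1.24) and Mcm2 (-0.41).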

How the results depend on the processing

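The counts of 992 higher and 927 lower genes moved by over 1.5 times under changes of the filter on low counts and in the interaction test. With no filter 576 genes were lower, and 227 higher and 64 lower passed 2-fold, against 146 and 39. Among genes averaging 1 CPM or more 74 and 24 passed 2-fold, out of fewer tested genes. The difference between genotypes passed for 20 genes with the DESeq2 Wald test against 7. Leaving out each single library gave 720 to 1002 higher and 620 to 1049 lower genes, and 131 to 165 and 31 to 52 past 2-fold. The log2 fold change of Ciart turned to -0.067 with limma voom and quality weights, and that of Slc2a2 to 0.016 without STZ-control 7 and 8 and PBS-cKOt 1 and 3; neither passed the threshold in any of these fits, and the cause was not tested.

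Replicate numbers did not pair the samples, with correlations of same-numbered deviations from -0.17 to 0.29 and 2 of 9 numbers best matched to themselves. With a replicate block 1016 genes were higher and 1023 lower, and the interaction passed for 5.

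Of 107 named genes past the threshold 75 kept their call under all 26 alternatives and 84 without each of the 18 libraries. Of their values 218 missed the threshold under an alternative. Aqp8, Stk39, Cyp4a14, Adipoq and Slc7a13 were among the genes whose call ended without the largest number of single libraries. Intervals and tests cover the spread between 9 animals a group at 1 time of day, and low genes at a few CPM are limited by depth.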
